A study of Mus musculus with 6 samples.

Results

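The genes of origin firing and of the replication fork were examined on arrays of regulatory T cells (Tregs) lacking HDAC11, a histone/protein deacetylase. These are 42 named genes, from the origin recognition complex to the DNA polymerases, the sliding clamp and its loader, and the chromatin factors that follow the fork. A gene was taken as measured where the annotation of at least 1 probe set names it as the only symbol. This held for 37 of the 42 genes, out of 12393 genes on the array, through 60 probe sets. Gins2, Gins3, Rnaseh2a, Chaf1a and Mcm8 were not analysed here.

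The study hybridised 6 Mouse430A arrays (Affymetrix), 3 with RNA of HDAC11-/- Tregs and 3 with RNA of WT Tregs. The HDAC11-/- cells carried the fl-HDAC11/Foxp3cre genotype, in which Foxp3 YFP-Cre removes the floxed Hdac11 alleles in Foxp3+ cells. The WT cells came from C57BL6 mice, whose labels name neither a floxed allele nor Cre, so loss of HDAC11 and presence of Cre cannot be told apart. All cells were CD4+CD25+ cells separated by magnet, no treatment is given in the labels, and the methods put the mice of the study at 6 to 8 weeks of age unless specified, on a C57BL/6 background. The samples are described as independent, but not whether each array is a mouse of its own, so the p-values capture no more than the spread among these arrays, which may be technical.

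Before S phase, the origin recognition complex (ORC) marks the sites where replication can start and helps to load the MCM helicase there. The kinase Cdc7 with its activator Dbf4 then allows Cdc45 and the GINS complex to join MCM, which makes the helicase active. Polymerase alpha-primase lays down primers, polymerases epsilon and delta extend the strands while held by the PCNA clamp, and nucleosomes and DNA methylation are restored behind the fork. Many of these genes are known to be induced by E2F factors as a T cell leaves rest and enters the cell cycle.

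The arrays of the 2 genotypes were well separated. Array medians lay between 6.74 and 6.77 on the log2 scale, and 80.9% of the variance fell on the first principal component. The probe sets for Hdac11 did not check the labels. The brighter one gave 6.36, 6.28 and 6.22 in HDAC11-/- Tregs, against 6.31, 6.36 and 6.53 in WT Tregs (log2 fold change -0.12, adjusted p = 0.222 by limma), and its position relative to the deleted part is not known here. Foxp3, which defines Tregs, averaged 3.73 in HDAC11-/- and 3.68 in WT Tregs, no brighter than the array's bacterial control probe sets in either genotype (here called the control range), while the other 8 T cell and Treg markers lay above it. Over all probe sets, 876 were called higher and 1138 lower. When the arrays were set on 12 reference genes, which averaged 0.11 higher in HDAC11-/- Tregs on the log2 scale, these counts were 563 higher and 1701 lower.

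Of the replication fork and firing genes, 16 were called higher in HDAC11-/- Tregs and 21 were not called. A call needed an adjusted p under 0.05 by limma and at least a 1.5-fold difference (0.58 on the log2 scale), read from the brightest probe set of a gene. The 16 genes are 43.2% of the 37 measured, against 3.46% of all genes called higher, and 0 were called lower, against 3.72% of all genes. SAM also called 0 lower, and 3 genes were lower at an unadjusted p under 0.05. By the adjusted p alone, 29 genes (78.4%) were higher and 2 (Orc3 and Pold1) lower, against 22.9% and 23.2% of all genes. The median log2 fold change of the genes was 0.52, against -0.04 over all genes. A change in the share of cells expressing a gene and a change in its RNA per cell cannot be told apart in these bulk samples.

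The calls were spread over 9 of the 11 sub-complexes. Of the 16, 3 belong to polymerase alpha-primase and 4 to the clamp and its loader, 2 each to Cdc45 with GINS and to polymerases delta and epsilon, and 1 each to ORC, the Cdc7 kinase, Okazaki fragment processing, fork protection and the chromatin group. Replication protein A and the pair of other replication factors had 0 calls. Fold changes of at least 2 were seen for Uhrf1, Rfc4, Pola1, Cdc45, Pole2 and Lig1, each from a different sub-complex. Only counts and medians are given for the sub-complexes, and differences between them were not tested.

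**Figure D1:**
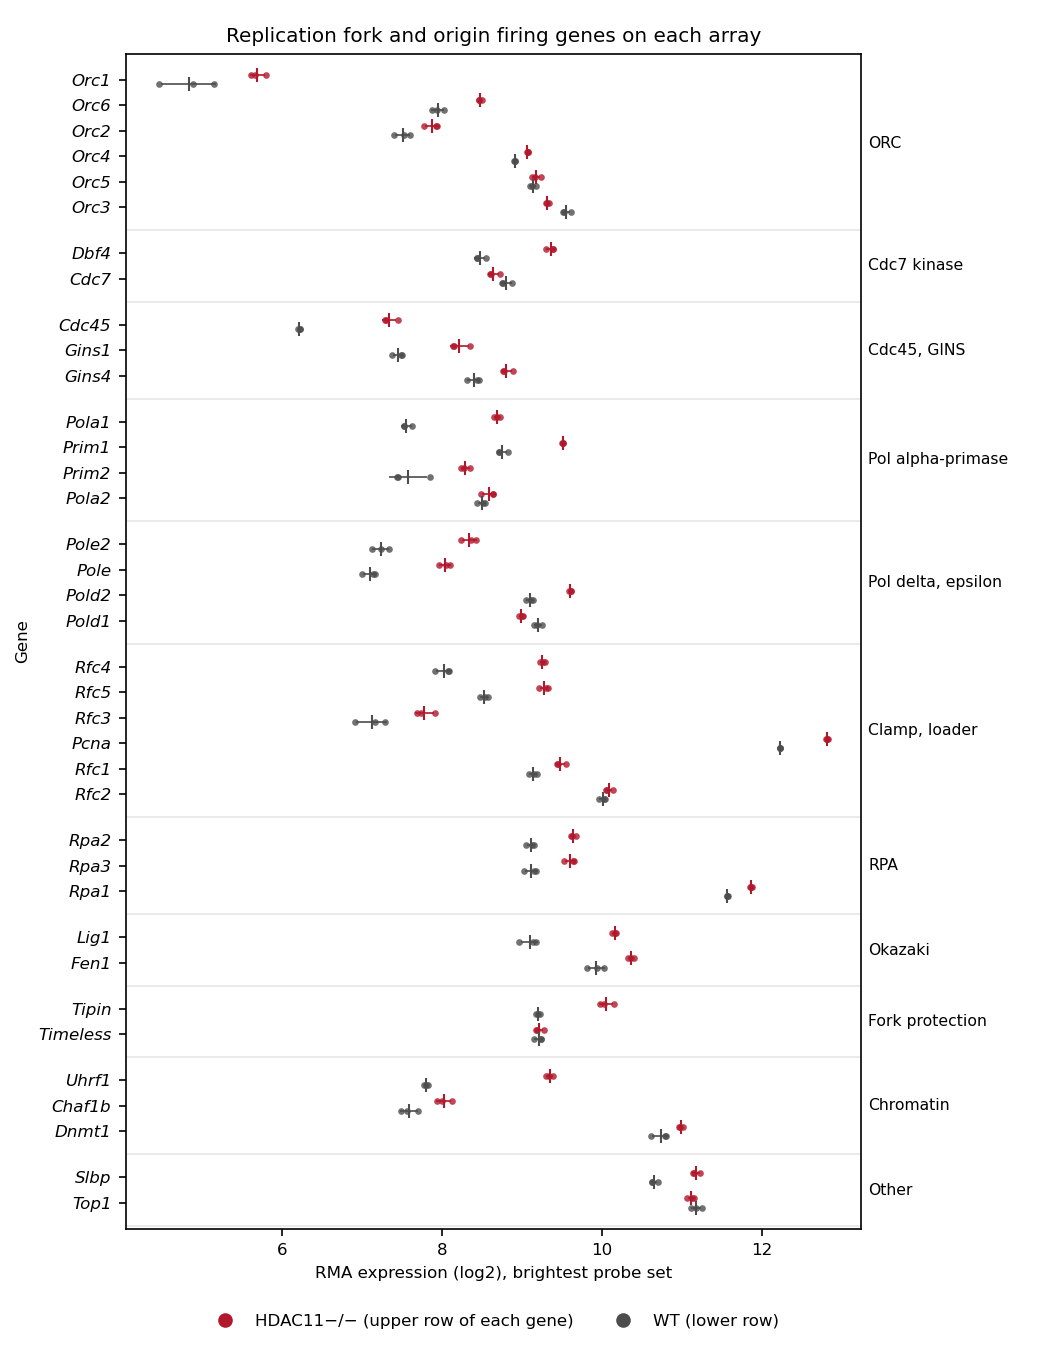
RMA expression (log2, x axis) of the 37 measured genes on each of the 6 arrays, with HDAC11-/- arrays in red above WT arrays in grey, vertical ticks for the group mean and bars for the SD (n = 3). The red points of Uhrf1, Rfc4, Pola1, Cdc45, Pole2 and Lig1 lie far to the right of the grey ones, while those of Timeless, Pola2, Orc5 and Top1 share their range.

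To show what the promoters of these genes hold, the RefSeq windows from 250 bases before to 50 bases after each annotated start (GRCm38.p6) were searched on both strands for the E2F forms TTTCCCGC, TTTCGCGC, TTTGCCGC and TTTGGCGC. Windows were at hand for 35 of the 42 genes, 31 of them measured. Some genes, such as Lig1, Uhrf1 and Dnmt1, have windows at several annotated starts, not all with a match. A gene was counted if any of its windows held a form. A form was found in 9 of the 31 measured genes (29.0%), and in 11 of 46 windows of the 42 genes (23.9%), against 744 of 32851 windows of all genes (2.26%). Of the genes with a window, 6 of 12 called higher and 3 of 19 not called held a form. Searched on both strands too, the CCAAT box stood in 52.2% of the windows of these genes, against 37.4% of all windows, and the CHR element (TTTGAA or TTCGAA) in 19.6%, against 19.2%. In the windows of these genes, 0 E2F matches overlapped a CCAAT or CHR match. A match is a description of the letters and not a shown binding site. The stretches around the matches of the called genes are printed along the strand of the gene, with the match in capitals and 11 bases on either side, so that a match on the other strand reads as its reverse complement.
Uhrf1: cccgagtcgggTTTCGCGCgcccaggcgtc
Pola1: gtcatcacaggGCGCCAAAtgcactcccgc
Pole2: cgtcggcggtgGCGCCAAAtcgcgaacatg
Lig1: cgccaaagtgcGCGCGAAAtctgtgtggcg
Rfc3: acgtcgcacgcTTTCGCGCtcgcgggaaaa
Orc1: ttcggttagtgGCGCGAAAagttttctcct

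These stretches lie at chr17:56304117-56304146 on the plus strand for Uhrf1, chrX:93632275-93632304 on the minus strand for Pola1, chr12:69228162-69228191 on the minus strand for Pole2, chr7:13278841-13278870 on the plus strand for Lig1, chr5:151651200-151651229 on the minus strand for Rfc3 and chr4:108579416-108579445 on the plus strand for Orc1. The match began 185 bases before the start in Uhrf1, 138 in Pola1, 27 in Orc1 and 10 in Rfc3, which has another match (GCGGGAAA) from its first transcribed base. In Pole2 and Lig1 the match fell after the start, at bases 11 and 27 of the transcript. For Uhrf1 and Lig1, these positions count from the annotated start whose window holds the match. Among the genes not called, the forms were found in Orc3, Pold1 and Dnmt1, and they are shown because these genes hold the letters without a call.
Orc3: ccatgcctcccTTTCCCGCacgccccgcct
Pold1: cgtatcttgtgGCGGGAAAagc
Dnmt1 upstream match: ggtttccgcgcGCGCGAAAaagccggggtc
Dnmt1 downstream match: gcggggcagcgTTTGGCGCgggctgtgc

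They lie on the minus strand of their chromosomes, at chr4:34614965-34614994 for Orc3, chr7:44548766-44548787 for Pold1, and chr9:20952824-20952853 and chr9:20952574-20952601 for Dnmt1. Rfc4, whose rise was exceeded only by that of Uhrf1, held none of the forms, and neither did Cdc45. The 250 bases before the start of Rfc4, at chr16:23127731-23127980 on the minus strand, are shown beside those of Uhrf1, at chr17:56304063-56304312 on the plus strand, in which the E2F form is in capitals.
Rfc4: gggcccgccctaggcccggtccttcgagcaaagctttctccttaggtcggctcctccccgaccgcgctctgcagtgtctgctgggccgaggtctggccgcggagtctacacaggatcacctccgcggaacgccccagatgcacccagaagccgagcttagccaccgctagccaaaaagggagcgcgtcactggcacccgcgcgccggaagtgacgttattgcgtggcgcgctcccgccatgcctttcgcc
Uhrf1: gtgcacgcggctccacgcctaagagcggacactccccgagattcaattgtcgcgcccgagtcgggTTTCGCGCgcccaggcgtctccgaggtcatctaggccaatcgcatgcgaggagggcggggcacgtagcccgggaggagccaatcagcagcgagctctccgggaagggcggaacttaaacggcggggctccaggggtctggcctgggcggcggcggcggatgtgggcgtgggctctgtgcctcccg

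ORC had the lowest median log2 fold change (0.27) of the sub-complexes with 3 or more measured genes. Of its 6 genes, 1 was called higher, and by the adjusted p alone 4 were higher and 1 lower. Orc1, the ATPase subunit that works with Cdc6 in loading MCM, gave 5.67, 5.79 and 5.61 in HDAC11-/- Tregs, against 4.89, 5.15 and 4.47 in WT Tregs. Its groups did not overlap (adjusted p = 0.00596 by limma), but all 3 WT values lay within the control range. Orc1 was therefore at least 1.23-fold higher, a bound that is itself below 1.5-fold. Orc6, the subunit least tied to the core of the complex, gave 8.47, 8.50 and 8.46 in HDAC11-/- Tregs, against 8.03, 7.94 and 7.87 in WT Tregs. The groups stood apart, and the difference of 0.53 (SE 0.05, adjusted p = 0.000477) fell just short of the fold threshold.

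The core subunits Orc2, Orc3, Orc4 and Orc5 were all under 1.5-fold, and the probe sets of the first 3 did not go one way. Orc2 gave 7.78, 7.93 and 7.93 in HDAC11-/- Tregs, against 7.40, 7.53 and 7.59 in WT Tregs. It was 0.37 higher without overlap (adjusted p = 0.00597) and at -0.07 and -0.20 in its other probe sets. Orc3 was lower, with 9.30, 9.31 and 9.33 in HDAC11-/- Tregs and 9.61, 9.51 and 9.52 in WT Tregs (log2 fold change -0.23, adjusted p = 0.00759 by limma), but its dimmer probe sets were at 0.18 and 0.07. The groups of that brightest probe set did not overlap, and the difference was under 1.5-fold. Orc4 was 0.16 higher in the brightest probe set without overlap (adjusted p = 0.0174), and at -0.28 (adjusted p = 0.0105) and 0.22 in the others. Orc5 had a single probe set at 0.04 (adjusted p = 0.523), and its 95% confidence interval ran between -0.08 and 0.16.

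In the Cdc7 kinase, the activating subunit was higher and the catalytic one was not. Dbf4, which binds and switches on Cdc7, gave 9.39, 9.30 and 9.38 in HDAC11-/- Tregs, against 8.55, 8.44 and 8.43 in WT Tregs. Every HDAC11-/- array lay above every WT array, and Dbf4 rose by 0.88 (SE 0.06, adjusted p = 7.46e-05). Its other probe set, at 0.16, lay within the control range in both genotypes. Cdc7, the kinase itself, gave 8.60, 8.61 and 8.72 in HDAC11-/- Tregs, against 8.77, 8.75 and 8.88 in WT Tregs. Here the WT arrays were the higher ones without overlap, yet the difference of -0.16 missed the threshold (adjusted p = 0.0730), and the dimmer probe set was at -0.14 (adjusted p = 0.240).

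All 3 measured genes of the Cdc45 and GINS group were higher by the adjusted p, and 2 of them were called, with a median of 0.76. Cdc45, which joins MCM and GINS in the active helicase, gave 7.44, 7.29 and 7.30 in HDAC11-/- Tregs, against 6.22, 6.20 and 6.22 in WT Tregs. The WT arrays were almost equal, and all HDAC11-/- arrays lay about a doubling above them (2.18-fold, log2 fold change 1.13, SE 0.06, adjusted p = 2.92e-05). Gins1, a GINS subunit, gave 8.14, 8.15 and 8.35 in HDAC11-/- Tregs, against 7.49, 7.49 and 7.38 in WT Tregs (0.76, SE 0.07, adjusted p = 0.000377). Gins4, another subunit of the same complex, averaged 8.81 ± 0.07 in HDAC11-/- Tregs and 8.40 ± 0.08 in WT Tregs (SD, n = 3 each). Its groups did not overlap either, but the difference of 0.41 (adjusted p = 0.00232) was below the fold threshold.

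Polymerase alpha-primase, the enzyme that starts every new strand, had 3 of 4 genes called higher and a median of 0.74. Pola1, the catalytic polymerase subunit, gave 8.69, 8.65 and 8.72 in HDAC11-/- Tregs, against 7.52, 7.63 and 7.52 in WT Tregs. The lowest HDAC11-/- array lay a full log2 unit above the highest WT array, and Pola1 was 2.19-fold higher (adjusted p = 2.08e-05). Prim1, the catalytic primase subunit, gave 9.50, 9.52 and 9.51 in HDAC11-/- Tregs, against 8.71, 8.72 and 8.83 in WT Tregs. It rose by 0.76 (adjusted p = 8.93e-05), and its second probe set by 0.81. Prim2, the large primase subunit, gave 8.35, 8.24 and 8.28 in HDAC11-/- Tregs, against 7.85, 7.45 and 7.43 in WT Tregs, where the first array stood above the other two. It rose by 0.71 (SE 0.11, adjusted p = 0.00295), while its dimmer probe set was at 0.54. Pola2, the accessory subunit, was the exception. It gave 8.49, 8.63 and 8.63 in HDAC11-/- Tregs, against 8.51, 8.44 and 8.54 in WT Tregs, with overlapping groups and a log2 fold change of 0.09 (adjusted p = 0.273, 95% confidence interval -0.06 to 0.23). Its dimmer probe set, at -0.39, lay within the control range in both genotypes.

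Of the 4 genes of polymerases delta and epsilon in the set, 2 were called higher, with a median of 0.72. Both belong to polymerase epsilon, which extends the leading strand and has further subunits outside the set. Pole, its catalytic subunit, gave 7.96, 8.10 and 8.05 in HDAC11-/- Tregs, against 7.14, 6.99 and 7.16 in WT Tregs (log2 fold change 0.94, SE 0.07, adjusted p = 0.000111). Pole2, its accessory subunit, gave 8.36, 8.24 and 8.42 in HDAC11-/- Tregs, against 7.12, 7.23 and 7.33 in WT Tregs (1.11, SE 0.08, adjusted p = 0.000100). In both genes the groups were far apart. The 2 genes of polymerase delta, which extends the lagging strand, were not called. Pold2, the accessory subunit, gave 9.61, 9.59 and 9.61 in HDAC11-/- Tregs, against 9.05, 9.13 and 9.11 in WT Tregs, a clear separation of 0.50 (SE 0.05, adjusted p = 0.000292) that is under 1.5-fold. Pold1, the catalytic subunit, was lower, with 9.02, 8.99 and 8.97 in HDAC11-/- Tregs and 9.19, 9.25 and 9.15 in WT Tregs. Its log2 fold change was -0.20 (adjusted p = 0.0134), against 0.04 (adjusted p = 0.551) in its other probe set. The brightest probe set carries a suffix for sequence shared with other transcripts.

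**Figure D2:**
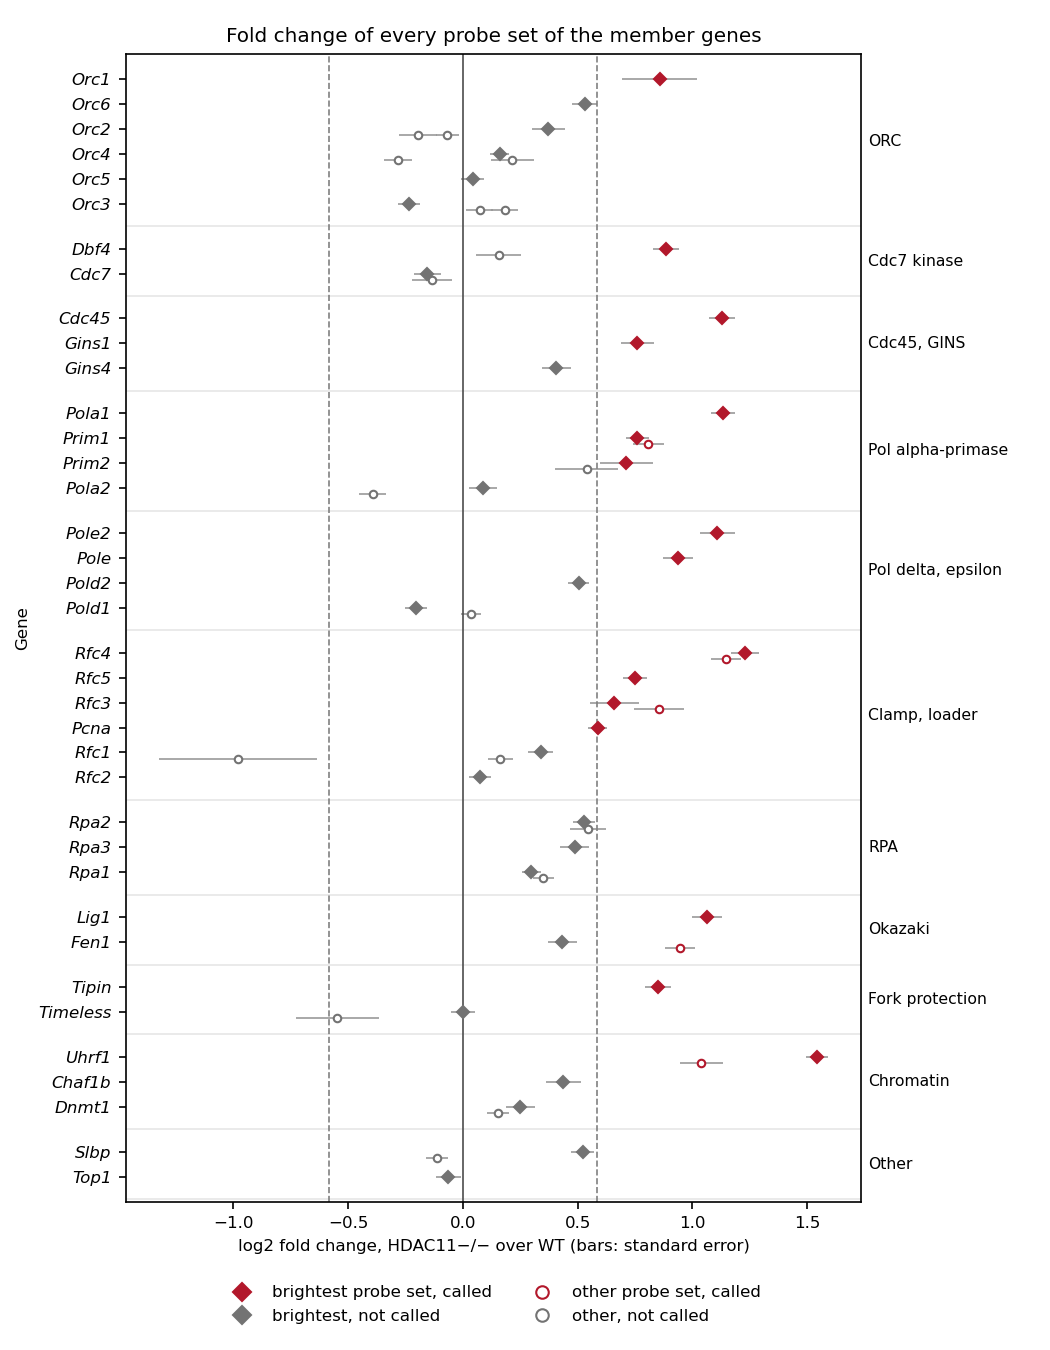
Log2 fold change of HDAC11-/- over WT Tregs (x axis, bars show the standard error) for all 60 probe sets of the 37 genes, ordered by sub-complex, where a filled diamond is a gene's brightest probe set, an open circle any other, red means called, and dashed lines at 1.5-fold. The red diamonds number 16, all to the right of the dashed line, and no probe set was called to the left.

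In the clamp and clamp loader group, 4 of 6 genes were called higher, with a median of 0.62. Pcna, the ring that holds polymerases on DNA, gave 12.8 on every HDAC11-/- array and 12.2 on every WT array. It rose by 0.59 (SE 0.04, adjusted p = 0.000104), which is at the fold threshold, and at 0.58 it lost its call without HDAC11-/- replicate 2. Rfc4, a small subunit of the loader that opens the ring, gave 9.22, 9.28 and 9.26 in HDAC11-/- Tregs, against 7.91, 8.09 and 8.08 in WT Tregs. The groups lay more than a log2 unit apart (1.23, SE 0.06, adjusted p = 2.89e-05), and the second probe set rose by 1.15. Rfc5, another small subunit, gave 9.22, 9.32 and 9.29 in HDAC11-/- Tregs, against 8.57, 8.54 and 8.47 in WT Tregs (0.75, adjusted p = 0.000109). Rfc3, also a small subunit, was noisier, with 7.91, 7.69 and 7.74 in HDAC11-/- Tregs and 7.17, 6.91 and 7.28 in WT Tregs. It rose by 0.66 (SE 0.11, adjusted p = 0.00312) and by 0.85 in its other probe set, but its brightest probe set lost the call at 0.56 without WT replicate 2.

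The other loader subunits were not called. Rfc1, the large subunit, gave 9.55, 9.43 and 9.45 in HDAC11-/- Tregs, against 9.15, 9.18 and 9.08 in WT Tregs (0.34, SE 0.05, adjusted p = 0.00290). Its groups did not overlap in that probe set, but its dimmest one was at -0.98 with a large error (SE 0.34, adjusted p = 0.0549) and overlapping groups. The remaining probe set of Rfc1 was at 0.16. Rfc2 gave 10.06, 10.05 and 10.13 in HDAC11-/- Tregs, against 10.02, 9.96 and 10.04 in WT Tregs, groups that nearly touched, with a difference of 0.07 (adjusted p = 0.253) and a 95% confidence interval of -0.04 to 0.19. The small subunits, which assemble with Rfc1 into a single complex, thus ranged between 0.07 for Rfc2 and 1.23 for Rfc4. When scaled on the reference genes, Pcna was at 0.47 and Rfc3 at 0.55, both below the fold threshold.

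Replication protein A, which coats single-stranded DNA at the fork, had 0 of 3 genes called, yet all 3 were higher by the adjusted p. Rpa1, the large DNA-binding subunit, gave 11.86, 11.85 and 11.87 in HDAC11-/- Tregs, against 11.57, 11.56 and 11.56 in WT Tregs. The arrays within each genotype were nearly equal, so the difference of 0.30 (adjusted p = 0.00151) was clear though small. Rpa2, the middle subunit, averaged 9.64 ± 0.03 in HDAC11-/- Tregs and 9.11 ± 0.05 in WT Tregs (SD, n = 3 each), a difference of 0.53 (adjusted p = 0.000313). Rpa3, the small subunit, averaged 9.60 ± 0.07 in HDAC11-/- Tregs and 9.12 ± 0.08 in WT Tregs (SD, n = 3 each), a difference of 0.49 (adjusted p = 0.00122). The second probe sets of Rpa1 and Rpa2 were at 0.35 and 0.54, close to the first.

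Both measured genes of Okazaki fragment processing were higher. Lig1, the ligase that joins the fragments, gave 10.12, 10.17 and 10.18 in HDAC11-/- Tregs, against 8.97, 9.18 and 9.14 in WT Tregs. It rose by 1.06 (SE 0.07, adjusted p = 6.87e-05), with the groups far apart. Fen1, the nuclease that trims the flap before ligation, gave 10.33, 10.39 and 10.36 in HDAC11-/- Tregs, against 9.81, 9.94 and 10.03 in WT Tregs. That difference of 0.43 (adjusted p = 0.00211) did not reach 1.5-fold, but the dimmer probe set of Fen1 rose by 0.95 (adjusted p = 0.000104), with 9.22, 9.19 and 9.18 in HDAC11-/- Tregs and 8.18, 8.20 and 8.38 in WT Tregs. The brightest probe set of Fen1 carries the same suffix for sequence shared with other transcripts as that of Pold1.

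In the fork protection complex, Tipin was called higher and Timeless was not. Tipin gave 10.02, 9.98 and 10.14 in HDAC11-/- Tregs, against 9.17, 9.22 and 9.20 in WT Tregs, and rose by 0.85 (SE 0.06, adjusted p = 9.19e-05). Timeless, which binds Tipin and travels with the fork, gave 9.17, 9.27 and 9.19 in HDAC11-/- Tregs, against 9.24, 9.15 and 9.23 in WT Tregs. Its groups overlapped, and its log2 fold change was 0.00 (adjusted p = 0.974), with a 95% confidence interval of -0.12 to 0.13. The dimmer probe set of Timeless gave 7.31, 7.11 and 6.82 in HDAC11-/- Tregs, against 7.97, 7.53 and 7.39 in WT Tregs, at -0.55 (SE 0.18, adjusted p = 0.0451) and under 1.5-fold.

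In the chromatin group, Uhrf1 stood out. Uhrf1, which reads hemimethylated DNA behind the fork and brings in Dnmt1, gave 9.34, 9.30 and 9.39 in HDAC11-/- Tregs, against 7.80, 7.82 and 7.78 in WT Tregs. It was 2.91-fold higher (log2 fold change 1.54, SE 0.05, adjusted p = 4.30e-06), the highest of the 37 genes, and its second probe set rose by 1.04. Dnmt1, the methyltransferase that copies methylation to the new strand, gave 10.98, 11.01 and 10.97 in HDAC11-/- Tregs, against 10.61, 10.79 and 10.80 in WT Tregs. The groups did not overlap, and the difference was 0.25 (adjusted p = 0.0174), against 0.15 in its other probe set. Chaf1b, a subunit of the histone chaperone CAF-1, averaged 8.02 ± 0.09 in HDAC11-/- Tregs and 7.58 ± 0.11 in WT Tregs (SD, n = 3 each), without overlap (0.44, SE 0.08, adjusted p = 0.00405). Of the other factors, Slbp, which binds the stem-loop of histone mRNAs, was 0.52 higher (adjusted p = 0.000359), just under the threshold. The dimmer probe set of Slbp, at -0.11, lay within the control range in both genotypes. Top1, which relaxes DNA ahead of replication and transcription, was at -0.06 with overlapping groups (adjusted p = 0.372).

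Since calls were unequal within several complexes, 7 pairs of partners were set against each other within each array. The level of a pair carries no meaning of its own, because probe sets differ in brightness, but its difference between genotypes shows unequal change. Dbf4 minus Cdc7 gave 0.79, 0.69 and 0.66 in HDAC11-/- Tregs, against -0.21, -0.31 and -0.45 in WT Tregs, a difference of 1.04. Pola1 minus Pola2 differed by 1.05 between the genotypes, Tipin minus Timeless by 0.85, Pold2 minus Pold1 by 0.71 and Gins1 minus Gins4 by 0.35. In these 5 pairs the HDAC11-/- and WT arrays did not overlap, which gives a p of 0.10 by a two-sided exact permutation test, the smallest that 3 against 3 arrays allow (0.14 after adjustment over the 7 pairs). Prim1 minus Prim2 (0.05, exact permutation p = 0.90) and Pole minus Pole2 (-0.17, exact permutation p = 0.30) overlapped. The difference also depended on the probe set, in a comparison added after the values were seen. With the Pold1 probe set that has no suffix for shared sequence, Pold2 minus Pold1 differed by 0.47, and with the dimmer Timeless probe set Tipin minus Timeless differed by 1.40. The pairs were chosen with the fold changes known, and their size is therefore a description.

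**Figure D3:**
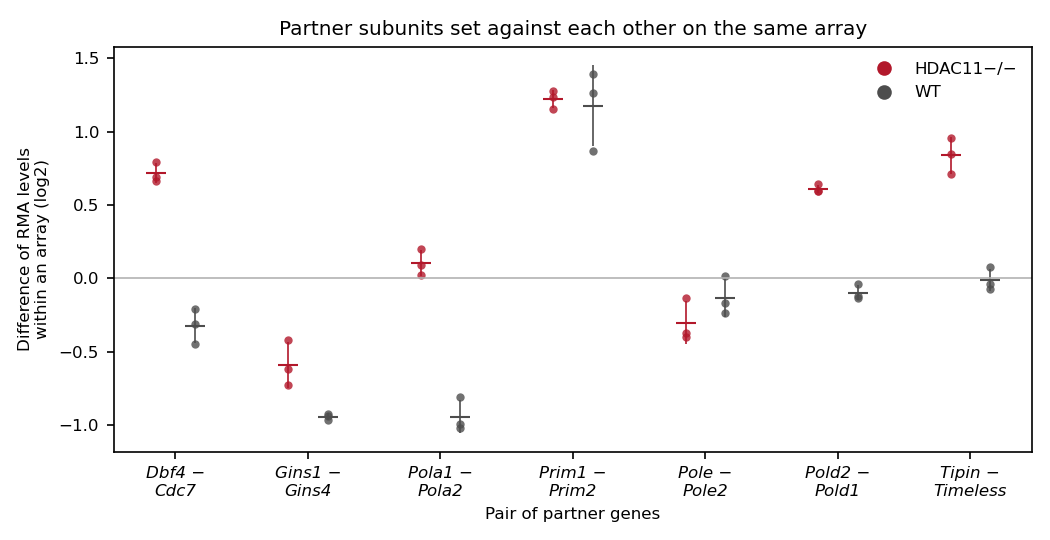
Difference in RMA level (log2, y axis) between partner genes on the same array, for 7 pairs, with HDAC11-/- arrays in red to the left of WT arrays in grey, dashes for the mean and bars for the SD (n = 3). The genotypes are separate for Dbf4 over Cdc7, Gins1 over Gins4, Pola1 over Pola2, Pold2 over Pold1 and Tipin over Timeless, and overlap for both other pairs.

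Several genes lay close to the fold threshold, so the counts by sub-complex depend on where it is drawn. Pcna (0.59) was just inside it, and Orc6, Rpa2 and Slbp (0.53, 0.53 and 0.52) were just outside. Among the genes with more than 1 probe set, 4 (Prim1, Rfc3, Rfc4 and Uhrf1) had all of them called higher, 3 (Dbf4, Prim2 and Fen1) had a mixture, and 12 had none called. In 8 genes the probe sets had opposite signs. Of the 60 probe sets, 21 were called higher and 0 lower.

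Further genes of the same machinery and of neighbouring processes were read from lists. Of 25 other replisome and firing genes measured, 4 were called higher and 0 lower, with a median of 0.23. These were Hells, a chromatin remodeller (1.65), Asf1b, a histone chaperone (1.47), Mcm10, which takes part in helicase activation (1.25), and Dna2, a nuclease and helicase (0.63), with adjusted p-values by limma of 5.86e-05, 2.54e-05, 4.39e-05 and 0.00278. MCM and licensing genes had 6 of 9 called higher and a median of 0.68, with Cdc6, the loading factor, at 2.09 and Gmnn, the inhibitor of licensing, at 1.43. Among nucleotide synthesis genes, 7 of 19 were called higher and 1 lower, with a median of 0.38. Rrm2, a subunit of ribonucleotide reductase, was at 2.04 and its partner Rrm1 at 1.06, while Tyms was at least 1.49-fold lower, a bound since its HDAC11-/- values lay within the control range. Mitosis genes had 26 of 28 called higher and a median of 1.86, led by Birc5 at 2.76 and Bub1 at 2.68. The fork genes, at a median of 0.52, therefore lay above all genes and below mitosis, without a test of that order. Uhrf1, the highest of them at 1.54, was below the median of the mitosis list.

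**Figure D4:**
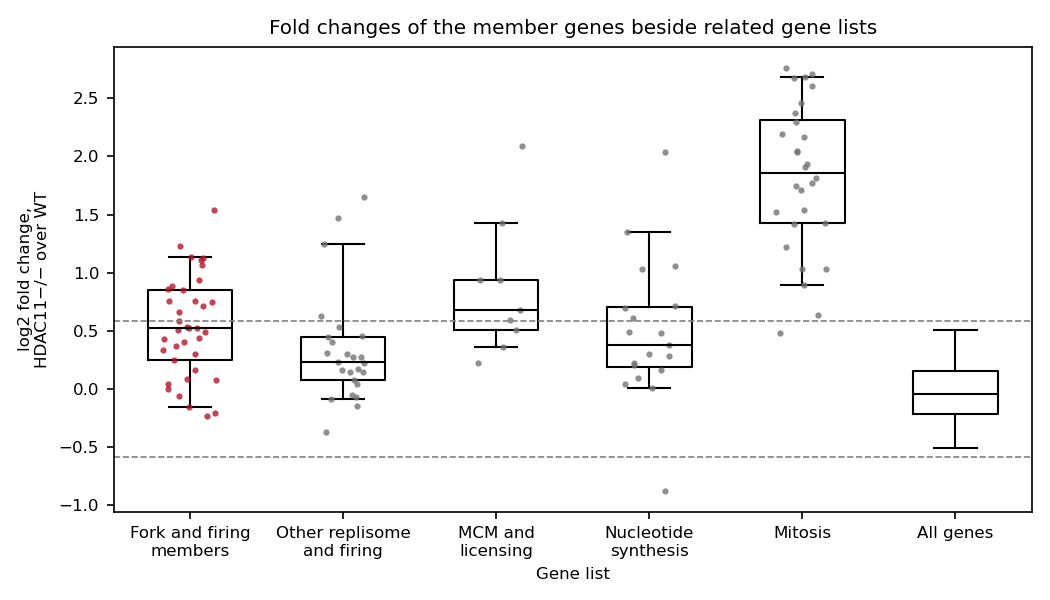
Log2 fold change of HDAC11-/- over WT Tregs (y axis) for each gene of the fork and firing set (red) and of 4 related lists (grey), with boxes for the quartiles, whiskers from the 5th to the 95th percentile and dashed lines at 1.5-fold, beside all 12393 genes. The medians are 0.52 for fork and firing genes, 0.23 for other replisome genes, 0.68 for MCM and licensing, 0.38 for nucleotide synthesis, 1.86 for mitosis and -0.04 for all genes.

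Markers of other cell types also differed between the genotypes. B cell markers had 0 of 7 called higher and 4 lower, with a mean level of the list between 6.10 and 6.21 on HDAC11-/- arrays and between 7.03 and 7.09 on WT arrays, and Pax5 and Ebf1 within the control range in both. Of dendritic cell and MHC class II markers, 0 of 7 were called higher and 4 lower (Cd74, H2-Aa, H2-Ab1 and H2-Eb1). Their list means were 7.54 to 7.56 on HDAC11-/- arrays and 8.28 to 8.38 on WT arrays. The dendritic cell markers Itgax (-0.39), Zbtb46 (-0.26) and Flt3 (0.11) were not called. CD8 T and NK cell markers had 2 of 8 lower (Ncr1 and Gzma), thymocyte markers 2 of 5 (Dntt, and Rag1 within the control range in both) and plasma cell markers 1 of 5 (Sdc1). By the adjusted p alone, 3 plasma cell markers were higher and 2 lower. Monocyte and macrophage markers had 4 of 10 called higher (Lyz1, C1qa, C1qb and C1qc), with list means of 4.96 to 5.14 on HDAC11-/- arrays and of 4.64 to 4.71 on WT arrays, and 5 of the 10, such as Cd14, Adgre1 and the called C1qb, lay within the control range in both. Neutrophil markers had 2 of 5 higher (S100a8 and S100a9), and erythroid markers 0 of 3 in either direction. The WT values of S100a8, S100a9, C1qa and C1qc lay within the control range. S100a8 was therefore at least 1.44-fold higher, S100a9 1.25-fold and C1qa 1.16-fold, bounds below 1.5-fold, while C1qc had no bound. T cell and Treg markers had 0 of 9 called, with list means of 10.38 to 10.42 on HDAC11-/- arrays and of 10.39 to 10.40 on WT arrays. By the adjusted p alone, Ctla4 was higher (0.50), and Cd4 (-0.32) and Ikzf2 (-0.35) were lower, each without overlap. The part of these cells in the differences of the fork genes was not tested.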

How the data were processed

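The authors amplified and biotin-labelled the RNA, normalized the arrays by RMA in MAYDAY 2.12 and deposited the log2 values of each array, 1 for every probe set. The background correction and the normalization of RMA were taken as deposited, and which version of the probe definitions was used is not stated in these sources. Of 22671 probe sets, 45 controls were left out, and 22626 were tested. The platform annotation gave 1 symbol to 20380 of these, several to 691 and none to 1555, and only those with 1 symbol were named.

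A linear model with genotype alone was fitted to each probe set (limma 3.58.1, lmFit and eBayes, under R 4.3.3), and Benjamini-Hochberg adjustment ran over all 22626. Adjusted p-values throughout are from this fit. The fold and p thresholds are those of the methods. A gene was read from its brightest probe set by the mean of all 6 arrays, as a fixed rule. Because probe sets differ in brightness, their levels are not a common scale of RNA amount. No filter on dim probe sets was used. A group with no array above its own brightest bacterial control (5.06 to 5.48 on the log2 scale) was given only a bound. On simulated data for this comparison with 22626 probe sets, limma called 47 of 50 probe sets raised 2-fold and 44 of 50 lowered 2-fold. It also called 1 of 22426 unchanged ones. Of 50 changed exactly 1.5-fold, 34 passed the adjusted p and 15 were called. A change set at the fold threshold is often estimated below it. Nearly all simulated probe sets were unchanged, whereas SAM put the unchanged share of the data at 0.476, so recovery may differ. Precision is limited by the number of arrays, whose median SD over probe sets was 0.07 in HDAC11-/- and 0.09 in WT Tregs.

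Text names every gene of the set with its probe sets, and up to 4 called genes in each direction of the related lists by smallest adjusted p. The genes and lists, the partner pairs and the E2F search were chosen with earlier results of these data known. Promoter sequences are from RefSeq (GRCm38.p6). Alternatives were SAM (named in the methods, all 20 labelings), a robust prior with a trend in intensity, weights for arrays, the replicate number as a block, scaling on the bacterial controls or on reference genes, removal of dim probe sets, other thresholds, other choices of probe set, and each array left out once.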

Additional observations from a re-analysis of the deposited data

How the results depend on the processing

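The 16 genes called higher were the same genes under SAM, a robust prior with a trend in intensity, weights for arrays, scaling on the bacterial controls, an adjusted p under 0.01 and the probe set brightest in WT. The count was 29 without a fold threshold and 6 at 2-fold. It was 14 when scaled on the reference genes (Pcna and Rfc3 lost) and 14 with the dimmer probe sets left out, where Orc1 and Cdc45 were not fitted. It was 15 when probe sets with a shared-transcript suffix were set aside, since the only probe set of Pole carries one, and 17 by any probe set, with Fen1 added. The suffixes set aside were of more than 1 kind and do not mean the same. Pole and the brightest probe set of Orc4 carry _a_at, and that of Pold1 carries _x_at. The mean of the probe sets kept 16, with Fen1 in place of Dbf4. Leaving out each array in turn gave 15 to 16. The count of genes called lower was 0 under each of these, except 2 (Orc3 and Pold1) without a fold threshold.

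Directions turned only for genes near 0 or with disagreeing probe sets. On the reference scale, Orc5 was at -0.072, Pola2 at -0.027, Rfc2 at -0.039 and Timeless at -0.11. By the mean of the probe sets, Orc3 was at 0.0069, Pola2 at -0.15, Rfc1 at -0.16 and Timeless at -0.27. Without the shared-transcript probe sets, Orc4 was at -0.28 and Pold1 at 0.035. Timeless was at -0.027 without HDAC11-/- replicate 2 and at -0.028 without WT replicate 2, and lay between -0.028 and 0.020 over the arrays left out in turn. Of all fold changes of single genes under the alternatives, 654 kept direction and side of the threshold, 16 passed it newly, 15 no longer passed it and 12 turned. SAM, the prior with a trend, the replicate block and the other thresholds reuse the fold change of the main fit, so no direction could turn there. Most of the new and lost passes came from moving the threshold itself. Without a fold threshold 13 genes were gained as higher, and at 2-fold 10 were lost.

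Deviations of arrays with the same replicate number correlated at 0.23, -0.02 and 0.16. Those of arrays with different numbers correlated between -0.21 and 0.06. These values do not settle whether the numbers pair the arrays. With the replicate number as a block, 16 genes were called higher. With 3 arrays a genotype and a 1.5-fold threshold, a missing call does not show that a gene was unchanged.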
